A study of Mus musculus with 64 samples.

Results

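The nuclear genes of the mitochondrial respiratory chain were followed across 64 RNA-seq libraries of murine bone marrow-derived macrophages (BMMs). Members were chosen by name and biotype. They were the protein-coding genes whose symbols mark subunits of complex I (Nduf), II (Sdh), III (Uqcr), IV (Cox4 to Cox8) or the ATP synthase (Atp5, complex V), with a mean of at least 1 CPM over the 64 libraries, where CPM (counts per fixed library size) were scaled by edgeR's trimmed mean of M-values (TMM). The rule found 77 of the 55487 genes listed, and 14537 genes, all 77 members among them, had enough counts to be tested. Complex I had 36 members, complex II 4, complex III 8, complex IV 12 and complex V 17. Another 7 protein-coding genes matched by name and stayed below the limit. Just inside it lay Atp5s at 2.66 CPM and just outside it Cox7a1 at 0.915 CPM, with 1849 counts in all and at least 1 count in each of the 64 libraries. Cox6b2 had 205 counts in 34 libraries and Cox4i2 40 counts in 19, while Cox8b, Cox8c, Cox7b2 and a second Atp5o entry had 0 counts. Among the members, 19 have another gene of at least 97% identity over 100 nt or more, so that their reads could be split or left out by the counting. Of those named here these are Ndufa12, Ndufb2, Ndufb8, Ndufb9, Uqcr11, Uqcrb, Cox7a2l, Atp5g1, Atp5g2 and Atp5l, whose levels are uncertain for that reason. The same holds for mt-Nd4, Cox17, Suclg2, Cycs, Ndufab1, Hif1a and Itgam, which are not members and are named below.

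The libraries fall into 16 groups of 4. BMMs of Ahr+/+ or Ahr-/- mice, with or without the ligand-activated transcription factor AhR, were exposed for 6 h to DMSO (0.01%), to benzo(a)pyrene (BaP, 1 µM) or to indole-3-carbinol (I3C, 10 µM). They were then given killed bacteria (hk S.E., 10000000 per ml; heat-inactivated Salmonella enterica of serovar Enteritidis) for 3 h or 20 h. DMSO-treated cells without hk S.E. served as the unactivated control of each genotype and time, and no ligand was given to unactivated cells. Per the study's methods, marrow came from 4 mice per genotype. The Ahr+/+ mice were female C57BL/6JRj animals, while the germline knockout line, on C57BL/6, was first bought from another supplier and then crossed back in-house to Ahr+/+ C57BL/6JRj mice, and no sex is stated for it. Marrow was matured with M-CSF from L929-conditioned medium. How far the lines still differed outside Ahr was not tested.

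The respiratory chain moves electrons from NADH (complex I) and succinate (complex II) through ubiquinone, complex III and cytochrome c to oxygen at complex IV. Complexes I, III and IV pump protons across the inner mitochondrial membrane, and complex V uses the gradient to make ATP. In macrophages the chain also produces reactive oxygen species, and macrophages given bacterial products are known to lean on glycolysis while succinate oxidation by complex II serves signalling. Each complex except II also holds subunits encoded by mitochondrial DNA (mtDNA). Nuclear subunit genes are textbook targets of the factors Nrf1, GABP (an ETS factor), YY1 and ERRα.

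Promoter windows (RefSeq, GRCm38.p6, from 250 bases before to 50 after the transcription start) were held for 62 of the 77 members. Both strands were searched. The Nrf1 core GCATGCGC lay in 10 of 62 (16.1%, against 6.11% of all windows), the ETS core CCGGAAG in 16 of 62 (25.8%, against 20.8% of all windows) and the YY1 core AAGATGGC in 9 of 62 (14.5%, against 5.46% of all windows). The ERR core TCAAGGTCA lay in 2 of 62 (3.23%, against 0.326% of all windows). The AHR core GCGTG was found in 34 of 62 (54.8%, against 55.8% of all windows) and CCAAT in 26 of 62 (41.9%, against 43.1% of all windows). Of the 20 members with a window that were lower at 20 h in activated Ahr+/+ cells, 4 held the Nrf1 core, 8 the ETS core, 2 the YY1 core and 7 the AHR core. Of the 5 higher ones the same cores lay in 0, 1, 1 and 4. A match describes letters, not a bound site. The windows printed here belong to the genes on which the results turn. They are 3 members that fell or rose at 20 h, and Ndufa4 with its paralogue AA467197. Capitals mark the Nrf1 and ETS cores in Atp5k (chr5:108434350-108434649, minus strand) and Uqcr11 (chr10:80406772-80407071, minus strand), the YY1 core in Ndufs4 (chr13:114388045-114388344, minus strand) and the AHR core in Ndufa4 (chr6:11907401-11907700, minus strand) and AA467197 (chr2:122637637-122637936, plus strand). In Atp5k the Nrf1 core reads on both strands in overlapping positions -50 to -41 from the start, and the ETS core lies at 13 to 19. The AHR core also lies, unmarked and read as CACGC, in Atp5k at -203 to -199 and in Uqcr11 at -7 to -3. It is therefore not particular to Ndufa4 and AA467197 among the printed windows.
Atp5k: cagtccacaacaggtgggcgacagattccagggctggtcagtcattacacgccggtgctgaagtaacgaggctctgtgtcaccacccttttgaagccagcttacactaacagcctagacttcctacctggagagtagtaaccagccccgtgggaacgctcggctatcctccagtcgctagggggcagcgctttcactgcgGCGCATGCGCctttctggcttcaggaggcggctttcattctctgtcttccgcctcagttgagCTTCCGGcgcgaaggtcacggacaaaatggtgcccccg
Uqcr11: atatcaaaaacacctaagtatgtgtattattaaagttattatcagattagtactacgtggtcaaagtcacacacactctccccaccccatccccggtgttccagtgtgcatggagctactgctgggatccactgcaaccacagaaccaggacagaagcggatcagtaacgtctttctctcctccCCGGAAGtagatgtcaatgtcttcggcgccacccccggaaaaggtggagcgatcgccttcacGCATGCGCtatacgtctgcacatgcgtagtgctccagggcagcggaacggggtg
Ndufs4: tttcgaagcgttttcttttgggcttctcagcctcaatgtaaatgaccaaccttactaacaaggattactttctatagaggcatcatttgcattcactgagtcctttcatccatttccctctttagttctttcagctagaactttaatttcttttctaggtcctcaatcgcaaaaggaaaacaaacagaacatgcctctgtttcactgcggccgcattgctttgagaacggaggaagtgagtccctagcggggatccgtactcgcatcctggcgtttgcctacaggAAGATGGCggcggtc
Ndufa4: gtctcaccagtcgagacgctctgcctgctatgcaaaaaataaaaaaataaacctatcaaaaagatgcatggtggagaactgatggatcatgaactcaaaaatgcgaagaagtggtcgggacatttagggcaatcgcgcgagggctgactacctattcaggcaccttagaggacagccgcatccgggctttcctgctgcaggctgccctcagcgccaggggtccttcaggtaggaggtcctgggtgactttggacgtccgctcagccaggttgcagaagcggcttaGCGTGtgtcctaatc
AA467197: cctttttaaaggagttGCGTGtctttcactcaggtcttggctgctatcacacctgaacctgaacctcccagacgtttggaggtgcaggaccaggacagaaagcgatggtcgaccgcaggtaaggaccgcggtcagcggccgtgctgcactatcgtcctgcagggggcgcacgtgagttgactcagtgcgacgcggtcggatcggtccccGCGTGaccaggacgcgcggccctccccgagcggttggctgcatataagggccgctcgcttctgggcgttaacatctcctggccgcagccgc

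Divided by mRNA length, the levels rose from complex I to complexes IV and V. The median of a complex's members over all 64 libraries was 45.9 CPM per kb in complex I, 79.1 in complex II, 92.0 in complex III, 147 in complex IV and 115 in complex V. In complex I they ran from Ndufa12, an accessory subunit, at 17.7 to Ndufb8, a subunit of the membrane arm, at 125 CPM per kb. In complex II they ran from the membrane anchor Sdhc at 35.6 to the iron-sulfur subunit Sdhb at 116, and in complex III from the Rieske protein gene Uqcrfs1 at 47.6 to the hinge protein gene Uqcrh at 165. Complex IV spanned the heart and muscle isoform Cox6a2 at 11.4 to Cox4i1, its ubiquitous isoform of subunit 4, at 317. Complex V spanned Atp5s, which encodes a coupling factor and is not a core subunit, at 1.79 to Atp5b, the catalytic β subunit, at 397 CPM per kb. Member mRNAs were short, with a median of 758 nt (366 nt for Atp5mpl to 3171 nt for Sdhc). A length under 700 nt was found in 34 of them (44.2%), against 2.47% of the 12015 coding genes tested.

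Gene counts ran from 12152496 per library to 50644601, apart from 233047331 in Ahr+/+ unactivated 20 h replicate 4. Activation shifted the composition of the libraries. TMM factors were 1.24 to 1.34 in unactivated cells at both times, 0.761 to 0.844 at 3 h and 0.969 to 1.08 at 20 h of hk S.E. Without TMM the median log2 fold change of all genes moved by -0.67 at 3 h in both genotypes, by -0.37 (Ahr+/+) and -0.31 (Ahr-/-) at 20 h, and by 0.33 and 0.37 from 3 h to 20 h in activated cells. Directions against these backgrounds are therefore given relative to the median of all genes as well. The share of all genes called on plain library sizes is not given. Counts of calls on that scale, here and below, show how calls depend on the scaling and are no result about the members. Ahr-/- libraries still held Ahr reads (24.1, 21.3, 25.9 and 28.1 CPM at 20 h of hk S.E., against 14.9, 12.7, 12.7 and 11.9 in Ahr+/+). Gene counts over the whole locus do not show a deleted exon. The AhR target Ahrr stood at 0.728, 0.787, 0.626 and 0.810 CPM against 5.84, 6.16, 5.94 and 4.58 in the same groups. All 8 macrophage markers (Adgre1, Itgam, Csf1r, Cd68, Lyz2, Ptprc, Mertk, Fcgr1) were expressed, the 5 erythroid genes were at 0 and the 6 lymphocyte genes summed to at most 0.984 CPM. Library identifiers fall into numeric series. All Ahr-/- 20 h libraries are of series 20 and all activated Ahr+/+ 20 h libraries of series 15, so series and genotype cannot be told apart there. Activated Ahr-/- DMSO libraries are all of series 15 at 3 h and all of series 20 at 20 h. Series and time cannot be told apart between them either.

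**Figure D1:**
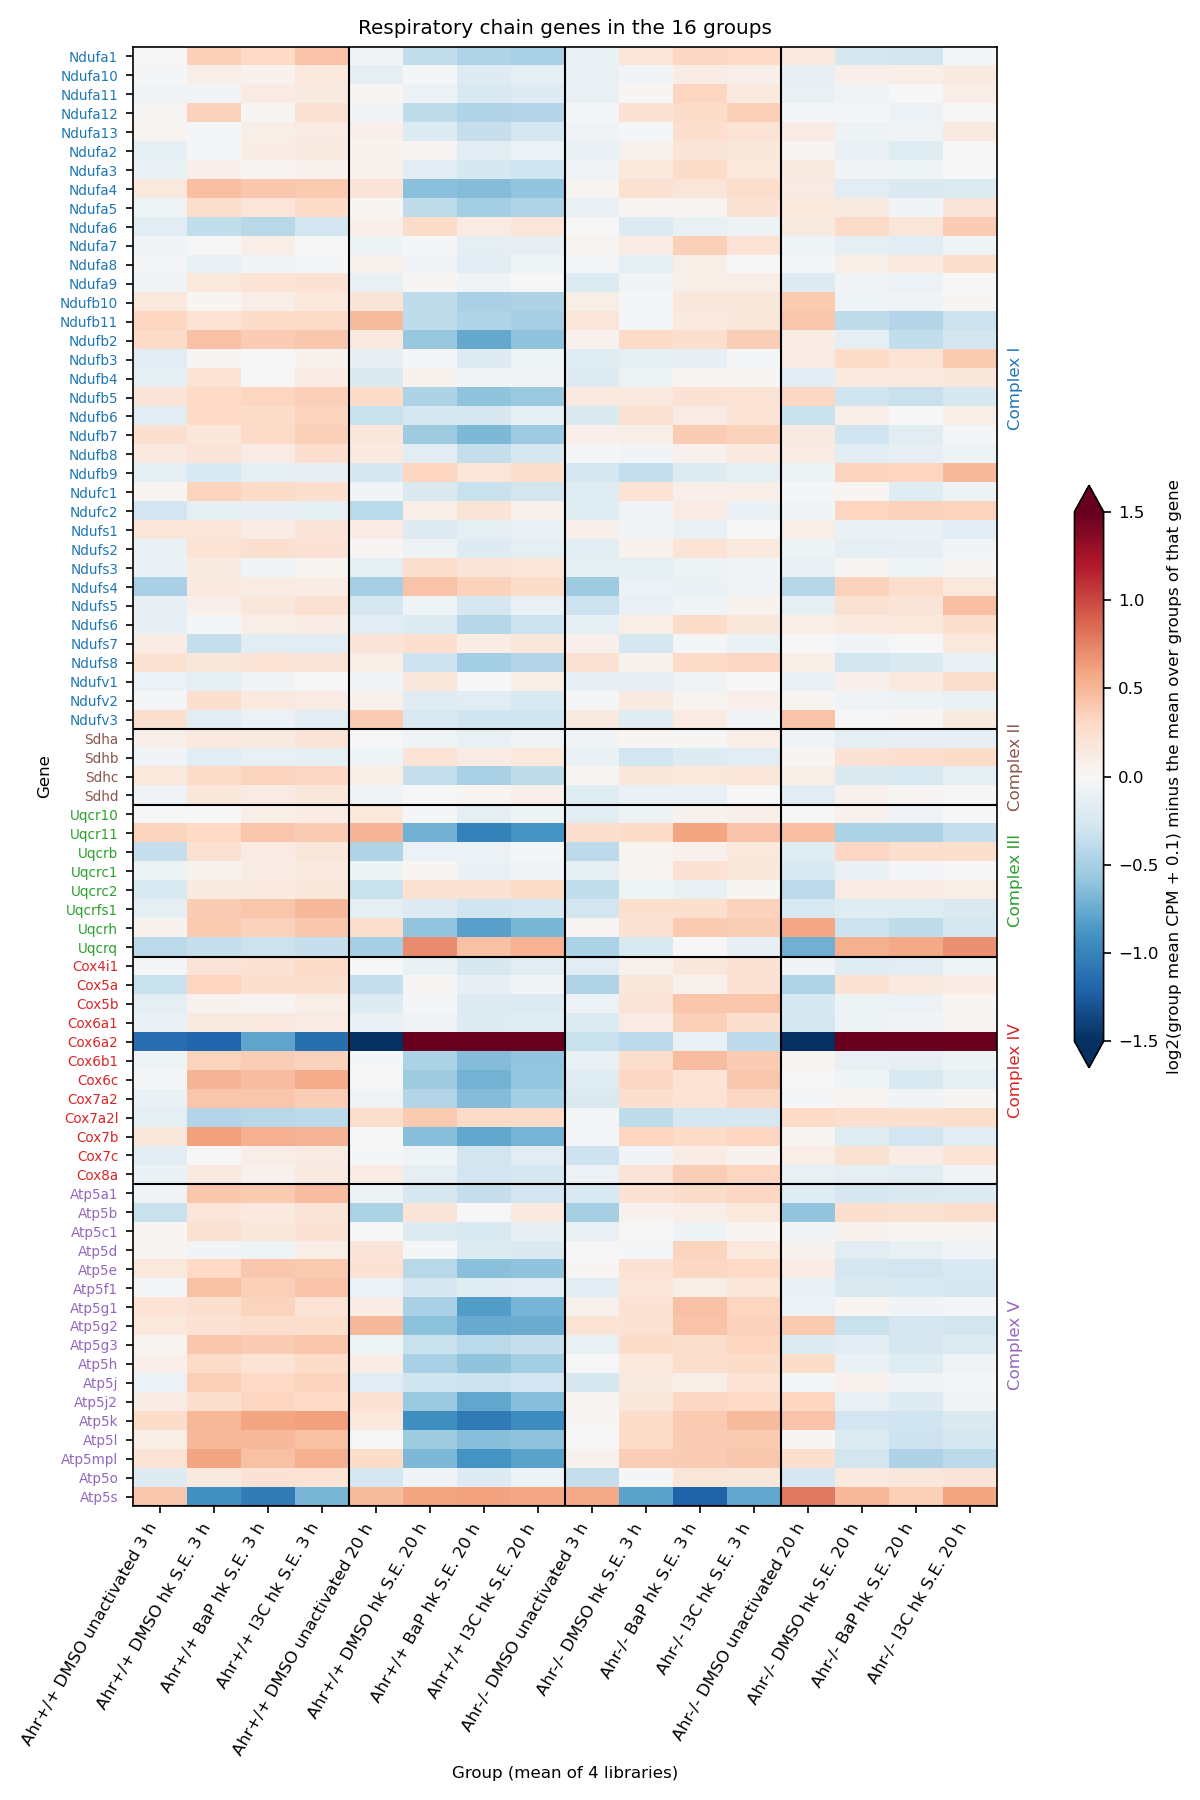
Heat map of the 77 members (rows, by complex) in the 16 groups (columns, 4 libraries each). Colour gives log2(mean CPM + 0.1) of the group minus the gene's mean over groups, on the TMM scale, and Cox6a2 of complex IV shows the widest range, from a mean of 0.475 CPM in unactivated to 18.5 CPM in activated Ahr+/+ BMMs at 20 h.

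At 3 h of hk S.E. the chain was modestly higher on the TMM scale. In Ahr+/+ BMMs 21 of 77 members were higher and 2 lower than in unactivated cells (edgeR's quasi-likelihood test, Benjamini-Hochberg adjusted p below 0.01 over all genes tested), and in Ahr-/- BMMs 14 were higher and 2 lower. Of all genes, 24.2% were called higher and 32.3% lower in Ahr+/+ cells, and 25.5% and 31.8% in Ahr-/- cells, so the share of members called higher was close to the background in Ahr+/+ and below it in Ahr-/- cells, and the share called lower was well below it. The Ahr-/- count of 16 became 25 (23 higher and 2 lower) with a replicate block and also with DESeq2, so the Ahr-/- reading rests on the fit used. The member median was 0.18 (log2) in Ahr+/+ and 0.17 in Ahr-/-, beside -0.10 and -0.08 for all genes. The direction depends on the scale, since with plain library sizes 0 members were higher and 51 (Ahr+/+) or 53 (Ahr-/-) lower. The median of all genes moved down on that scale too, so these counts are not particular to the chain. What both scales share is the rank, as 69 and 65 of the 77 members lay above the median of all genes. That rank is not particular to the chain. On the TMM scale 76 of the 77 ribosomal protein genes were above 0 in each genotype, with medians of 0.28 (Ahr+/+) and 0.24 (Ahr-/-). Other coding genes with mRNAs under 700 nt had medians of 0.14 and 0.15, beside 0.18 and 0.21 for members of that length. Among longer mRNAs the member medians also lay above those of other coding genes of like length. Here as in all bulk samples, fewer cells of a type and less RNA per cell cannot be told apart.

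Among the electron-carrying complexes, the largest change on the TMM scale at 3 h was in Cox5a, a matrix-side subunit of complex IV, which measured 98.4, 91.7, 99.1 and 101 CPM in unactivated and 147, 148, 154 and 164 CPM in activated Ahr+/+ cells. The groups did not overlap (log2 fold change 0.65 ± 0.10 SE, adjusted p = 7.71e-08), and Ahr-/- cells gave 0.63 ± 0.10 (log2, adjusted p = 1.77e-07). Non-overlap was required of members named for the largest changes with activation and time, so it adds no support for them here or below. Ndufs4, an accessory subunit of the NADH-oxidising arm of complex I, lay at 29.4, 27.8, 29.3 and 31.7 and then 46.6, 47.2, 46.0 and 44.9 CPM (log2 fold change 0.65 ± 0.08 SE, adjusted p = 3.17e-10). It was higher in every activated library than in any unactivated one, in both genotypes. Uqcrb, which stabilises complex III at the ubiquinone site, reached 0.58 ± 0.15 (log2, adjusted p = 8.26e-04), and the Rieske gene Uqcrfs1 0.54 ± 0.06 (log2, adjusted p = 2.02e-12) in Ahr+/+ and 0.51 ± 0.06 (log2, adjusted p = 7.15e-12) in Ahr-/- cells. Cox6c, a small structural subunit of complex IV, came to 0.52 ± 0.09 (log2, adjusted p = 2.00e-06) and 0.49 ± 0.09 (log2, adjusted p = 6.85e-06), and Cox7a2 to 0.48 ± 0.15 (log2, adjusted p = 0.00367) in Ahr-/- cells, a call lost without either of 2 libraries (unactivated replicate 1 and activated replicate 2). With plain library sizes these values turned to -0.15 at the lowest and -0.02 at the highest in Ahr+/+ cells. The Ahr-/- range was -0.19 to -0.04, and all 21 Ahr+/+ and all 14 Ahr-/- higher calls at 3 h turned below 0 there.

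Complex V took the largest part of the calls for its size, with 7 of 17 members higher and 1 lower in Ahr+/+ and 6 higher and 1 lower in Ahr-/- cells on the TMM scale. Atp5b measured 587, 549, 651 and 588 CPM in unactivated and 851, 839, 839.9 and 849 CPM in activated Ahr+/+ cells, and in Ahr-/- cells 481, 524, 549.9 and 559 and 785, 769.8, 742 and 797 CPM. The activated libraries were all above the unactivated ones (0.51 ± 0.07, log2, adjusted p = 1.39e-09, and 0.55 ± 0.07, log2, adjusted p = 1.60e-10), and on plain library sizes the Ahr-/- value was -0.12. Atp5s went the other way, from 4.19, 3.54, 1.78 and 3.18 to 1.05, 1.41, 1.18 and 1.23 CPM in Ahr+/+ cells (log2 fold change -1.38 ± 0.25 SE, adjusted p = 2.32e-06) and with -1.45 ± 0.24 (log2, adjusted p = 3.21e-07) in Ahr-/- cells, and it fell on plain library sizes too. The other lower calls were Ndufs7, a core iron-sulfur subunit of complex I, in Ahr+/+ (-0.46 ± 0.15, log2, adjusted p = 0.00450) and Cox7a2l, which helps join complexes III and IV, in Ahr-/- cells (-0.37 ± 0.11, log2, adjusted p = 0.00244). The Ndufs7 call was lost without any 1 of 5 of the 8 libraries (activated replicates 2, 3 and 4 and unactivated replicates 3 and 4) and the Cox7a2l call without either of 2 (unactivated replicate 2 and activated replicate 3). Both genotypes shared 13 of the higher calls (61.9% of the Ahr+/+ and 92.9% of the Ahr-/- list). Neutrophil genes moved with activation at 3 h, with all 3 tested of the 6 listed (Camp, Ltf, Ngp) called higher in each genotype and a summed level of 3.32 to 16.1 CPM before and 31.7 to 84.2 CPM after in Ahr+/+, and 6.59 to 10.5 and 38.0 to 45.0 CPM in Ahr-/- cells. Their defining genes Ly6g, Mpo and Elane averaged at most 0.0457 CPM. Of 5 fibroblast genes 1, Pdgfrb, was called higher in each genotype, and their sum was 0.552 to 0.828 CPM before and 7.07 to 12.3 CPM after in Ahr+/+, and 0.564 to 3.35 CPM before and 13.6 to 21.8 CPM after in Ahr-/- cells. Of 4 dendritic cell genes 1 was called higher (Flt3 in Ahr+/+ and Zbtb46 in Ahr-/- cells), with sums of at most 1.18 CPM. The part of these markers in the results was not tested.

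At 20 h the members had moved apart. In Ahr+/+ BMMs 9 members were higher and 24 lower than in unactivated cells of the same age in culture, while in Ahr-/- BMMs 11 were higher and 11 lower. The background was 29.9% higher and 28.7% lower of all genes in Ahr+/+, and 28.3% and 26% in Ahr-/- cells, so both shares of higher calls and the Ahr-/- share of lower calls were below it and the Ahr+/+ share of lower calls (31.2%) near it. The summed level stayed at 0.970 of the unactivated in Ahr+/+ and 1.04 in Ahr-/- cells, and the groups overlapped. With plain library sizes the sums were 0.752 and 0.841, with 4 higher and 50 lower calls in Ahr+/+ and 6 and 37 in Ahr-/- cells. On either scale 28 (Ahr+/+) and 36 (Ahr-/-) of 77 members lay above the median of all genes. The Ahr-/- count rose to 36 (15 higher and 21 lower) with a replicate block and was 10 in a fit on only the 2 groups compared. The Ahr-/- reading against the background therefore rests on the fit used.

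Cox6a2 (chromosome 7: 128205435 to 128206387, GRCm38, minus strand) carried the largest change of any member. It stood at 0.384, 0.377, 0.603 and 0.536 CPM in the 4 unactivated and 17.3, 18.2, 17.2 and 21.4 CPM in the 4 activated Ahr+/+ libraries at 20 h. The Ahr-/- libraries held 0.525, 0.742, 0.599 and 0.685 and 19.3, 17.9, 13.0 and 13.0 CPM. The groups did not overlap in either genotype, as the choice of named members required (log2 fold change 5.22 ± 0.28 SE, adjusted p = 3.23e-23 in Ahr+/+ and 4.64 ± 0.28, log2, adjusted p = 4.86e-21, in Ahr-/-). At 3 h it had not passed the test, with -0.03 ± 0.30 (log2, adjusted p = 0.942) and -0.03 ± 0.25 (log2, adjusted p = 0.919). COX6A2 is the striated-muscle isoform of a small regulatory subunit whose other isoform, COX6A1, is made in most tissues. Per length, Cox6a2 went from 0.402% ± 0.112 (SD, n = 4) to 13.1% ± 0.859 of the pair's summed level in Ahr+/+ and from 0.601% ± 0.126 to 11.6% ± 1.37 in Ahr-/- cells, and Cox6a1 held the larger share throughout.

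Other members that rose at 20 h sat in complexes I, III, IV and V. Uqcrq (chromosome 11: 53427922 to 53430831, minus strand), a small subunit of complex III, went from 43.9, 41.8, 38.7 and 43.7 to 102, 92.6, 90.2 and 103 CPM in Ahr+/+ cells (log2 fold change 1.21 ± 0.18 SE, adjusted p = 6.66e-08) and from 40.5, 43.8, 31.03 and 28.6 to 95.5, 112, 69.4 and 67.1 CPM in Ahr-/- cells (1.26 ± 0.18, log2, adjusted p = 3.04e-08). All activated libraries exceeded all unactivated ones of their genotype. Ndufs4 (chromosome 13: 114287795 to 114388258, minus strand), whose YY1-bearing window is printed above, went from 27.6, 26.4, 30.95 and 32.9 to 54.2, 55.2, 50.3 and 64.5 CPM (log2 fold change 0.93 ± 0.08 SE, adjusted p = 1.32e-15), and Ahr-/- cells gave 0.77 ± 0.08 (log2, adjusted p = 1.14e-12). Atp5b rose by 0.67 ± 0.07 (log2, adjusted p = 2.98e-13) and 0.83 ± 0.07 (log2, adjusted p = 2.40e-16), and Ndufb9, a membrane-arm subunit of complex I, by 0.56 ± 0.14 (log2, adjusted p = 3.47e-04) in Ahr+/+ cells. Cox5a rose by 0.66 ± 0.10 (log2, adjusted p = 6.12e-08) in Ahr-/- cells. Its Ahr+/+ call at 20 h (0.37 ± 0.10, log2, adjusted p = 9.63e-04) came to -0.00202 on plain library sizes. Of the 9 Ahr+/+ and 11 Ahr-/- higher calls, 8 were shared, and 4 of the 9 (Atp5b, Cox5a, Ndufs4, Uqcrc2) had also been called higher at 3 h.

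Of the 24 members that fell at 20 h in Ahr+/+ cells, 10 were in complex I, 9 in complex V, 2 each in complexes III and IV and 1 in complex II. Uqcr11 (chromosome 10: 80402997 to 80406830, minus strand), a small accessory subunit of complex III, fell from 48.7, 42.7, 40.8 and 49.7 to 20.5, 16.2, 19.5 and 20.8 CPM in Ahr+/+ cells (log2 fold change -1.24 ± 0.21 SE, adjusted p = 6.88e-07). The Ahr-/- values were 52.3, 55.1, 34.1 and 33.1 and 24.9, 34.0, 16.3 and 16.3 CPM, and there 1 activated library overlapped the unactivated ones (-0.93 ± 0.21, log2, adjusted p = 1.01e-04). Its near-identical copy Gm16418 makes its level uncertain. Atp5g2, 1 of the genes for the proton-carrying c ring, fell with -1.10 ± 0.15 (log2, adjusted p = 5.60e-09) in Ahr+/+ and -0.73 ± 0.15 (log2, adjusted p = 2.87e-05) in Ahr-/- cells, and it too has near-identical copies (Gm10175, Gm10231). Atp5k (chromosome 5: 108433244 to 108434448, minus strand), the e subunit that helps ATP synthase form dimers, measured 41.0, 38.9, 43.1 and 54.8 and 18.4, 16.9, 26.5 and 22.1 CPM (log2 fold change -1.08 ± 0.19 SE, adjusted p = 1.03e-06). Atp5mpl, a small membrane subunit of complex V, fell with -0.95 ± 0.11 (log2, adjusted p = 8.81e-11) and -0.53 ± 0.11 (log2, adjusted p = 4.02e-05), with no overlap in either genotype. Ndufb11, a membrane-arm subunit of complex I, fell with -0.87 ± 0.13 (log2, adjusted p = 3.66e-08) and -0.80 ± 0.13 (log2, adjusted p = 2.60e-07), and Ndufb5 with -0.61 ± 0.09 (log2, adjusted p = 2.82e-08) in Ahr-/- cells. All 11 Ahr-/- lower calls were among the 24 of Ahr+/+ (45.8% of them). Of the 24, 7 (Atp5g3, Atp5l, Atp5mpl, Cox6c, Cox7b, Ndufa4, Ndufv2) had been higher at 3 h on the TMM scale, and all 7 were below 0 at 3 h on plain library sizes.

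The median log2 fold change by complex at 20 h in Ahr+/+ cells was -0.11 in complex I, -0.01 in II, 0.03 in III, -0.07 in IV and -0.28 in V. The 77 ribosomal protein genes, another set of short and abundant mRNAs, had 1 higher and 31 lower calls there with a median of -0.31, and 263 other coding genes with mRNAs under 700 nt had a median of -0.24. Of the 24 members called lower, 14 have mRNAs under 700 nt. Across the 77 members Spearman's rho between length and log2 fold change was 0.275 in this comparison, which is a description over genes of the same libraries. Summed macrophage markers stood at 25129 to 28335 CPM in unactivated and 18210 to 22024 CPM in activated Ahr+/+ cells, with 3 of 8 called higher and 4 lower. Fibroblast genes, of which 2 were called higher, summed to 0.593 to 1.16 CPM in unactivated and 3.77 to 5.77 CPM in activated libraries. Dendritic cell genes, of which 2 were called higher, summed to 0.189 to 0.523 CPM and then 0.859 to 1.85 CPM. The part of markers and length in the result was not tested.

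**Figure D2:**
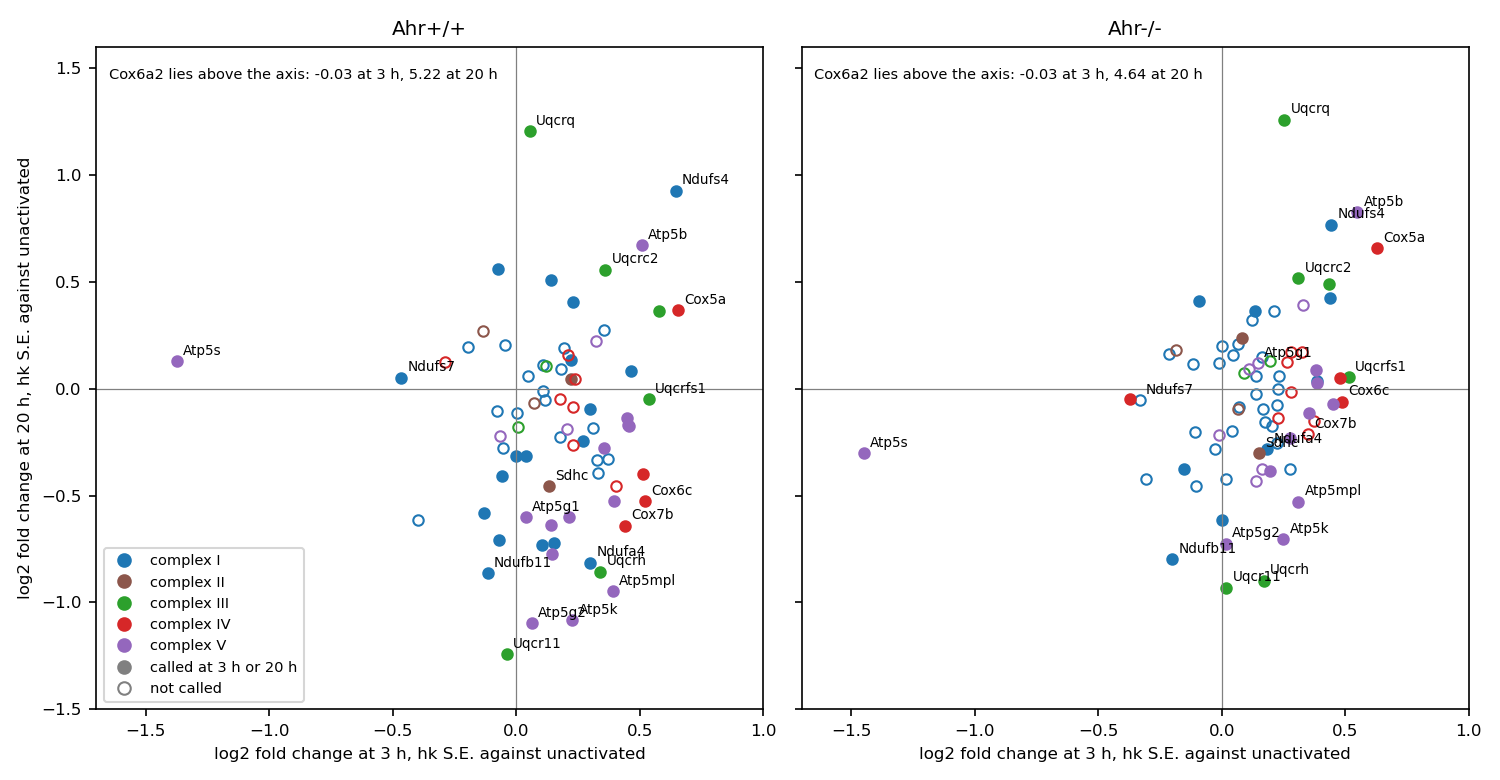
Log2 fold change of each member with hk S.E. at 3 h (x axis) and 20 h (y axis) on the TMM scale in Ahr+/+ (left) and Ahr-/- BMMs (right), by complex, filled where called at either time. Cox6a2 lies beyond the axis at -0.03 and 5.22 (Ahr+/+) or 4.64 (Ahr-/-), and most members sit right of 0 at 3 h while they spread to both sides at 20 h; on plain library sizes the median of all genes at 3 h moves left by 0.67.

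Complex II, the succinate dehydrogenase that also belongs to the TCA cycle, changed little with hk S.E. against unactivated cells, and not in one direction. From 3 h to 20 h in activated cells Sdhb was called higher and Sdha and Sdhc lower in both genotypes on the TMM scale. The complex II values there ran from -0.64 to 0.38 (log2) in Ahr+/+ and from -0.38 to 0.50 in Ahr-/- cells. On plain library sizes the lower calls were lost in Ahr-/- cells. The values that follow are those of hk S.E. against unactivated cells. Sdha, its flavoprotein, had 197, 203, 210.0 and 222 CPM in unactivated and 193, 196, 193 and 211 CPM in activated Ahr+/+ cells at 20 h, with no call at either time in either genotype (0.07 ± 0.05, log2, adjusted p = 0.232, at the early and -0.07 ± 0.05, log2, adjusted p = 0.281, at the late time in Ahr+/+). Sdhb gave -0.13 ± 0.10 (log2, adjusted p = 0.2496) at 3 h and 0.27 ± 0.10 (log2, adjusted p = 0.0157) at 20 h. Sdhc fell at 20 h in both genotypes, with -0.45 ± 0.07 (log2, adjusted p = 1.85e-07) and -0.30 ± 0.07 (log2, adjusted p = 2.54e-04). Sdhd, the other anchor, was higher at 3 h in Ahr+/+ (0.22 ± 0.07, log2, adjusted p = 0.00509) and at 20 h in Ahr-/- cells (0.24 ± 0.07, log2, adjusted p = 0.00292) on the TMM scale, values that turned to -0.45 and -0.07 on plain library sizes.

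Paralogous isoforms differed in share between groups, and these shares are given as a description without a test. Among the 3 genes of the c ring, which encode the same mature peptide, Atp5g2 held 42.6% ± 1.51 (SD, n = 4) of the summed CPM per kb in unactivated and 31.1% ± 2.77 in activated Ahr+/+ cells at 20 h. Atp5g3 held 40.1% ± 2.03 and 51.2% ± 4.83 in the same groups. At 3 h Cox7a2 went from 46.3% ± 1.53 to 60.1% ± 1.15 of the Cox7a level and Cox7a2l from 52.3% ± 1.59 to 38.8% ± 1.39 in Ahr+/+ cells. These shares are ratios within a library, so they do not depend on the scaling. At 20 h of hk S.E. Cox7a2 held 32.3% ± 1.87 in Ahr+/+ and 41.7% ± 3.17 in Ahr-/- cells. Over the 16 groups the lowest mean share of Cox4i1 within Cox4i was 99.96% and that of Cox6b1 within Cox6b 99.7%.

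NDUFA4 was first assigned to complex I, which its symbol still says, and is now known as a subunit of complex IV. Its paralogue NMES1, from AA467197, is known to rise in inflammation and to take its place, and the mouse microRNA miR-147 is made from the same transcript. Ndufa4 (chromosome 6: 11900292 to 11907497, minus strand) had 59.5, 56.4, 48.6 and 58.7 CPM in unactivated and 30.5, 31.2, 29.2 and 35.8 CPM in activated Ahr+/+ cells at 20 h (log2 fold change -0.81 ± 0.10 SE, adjusted p = 9.45e-11). The Ahr-/- libraries had 63.1, 50.8, 48.7 and 50.4 and 47.6, 52.7, 36.9 and 37.9 CPM, so that 1 activated library lay within the unactivated range (-0.28 ± 0.10, log2, adjusted p = 0.00846). AA467197 (chromosome 2: 122636986 to 122641191), outside the name rule, went from 10.7, 12.9, 17.0 and 13.6 to 372, 431, 383 and 340.0 CPM at 3 h (log2 fold change 4.82 ± 0.19 SE, adjusted p = 2.46e-29) and from 9.70, 7.89, 13.0 and 9.61 to 305, 308, 212 and 326 CPM at 20 h in Ahr+/+ cells. Ahr-/- cells had 247, 258, 315 and 296 CPM at 3 h and 124, 112, 159 and 159.8 CPM at 20 h of hk S.E. Per length the pair stood at 91.4 ± 8.16 (Ndufa4) and 13.4 ± 2.84 CPM per kb (AA467197; SD, n = 4) in unactivated and at 51.9 ± 4.76 and 383 ± 68.7 in activated Ahr+/+ cells at 20 h, where the paralogue was the more abundant mRNA. In activated Ahr-/- cells the values were 71.8 ± 12.6 and 185 ± 32.3 CPM per kb.

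From 3 h to 20 h unactivated cells had few calls among the members, with 1 member higher and 1 lower in Ahr+/+ (background 3.31% and 2.77%) and 0 and 1 in Ahr-/- cells (background 3.52% and 3.46%). By edgeR, 4 and 6 members had an unadjusted p under 0.05. The lower one was Cox6a2 in both genotypes, from 1.80, 1.2797, 3.35 and 1.57 to 0.384, 0.377, 0.603 and 0.536 CPM in Ahr+/+ cells (log2 fold change -1.98 ± 0.30 SE, adjusted p = 4.16e-06) and with -2.48 ± 0.29 (log2, adjusted p = 8.66e-09) in Ahr-/- cells. The higher one was Cox7a2l (0.41 ± 0.11, log2, adjusted p = 0.00722), a call lost without any 1 of 7 of the 8 libraries, all but the 20 h replicate 1.

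In activated Ahr+/+ cells 10 members rose and 38 fell from 3 h to 20 h (background 33% higher and 26.4% lower), and in activated Ahr-/- cells 9 rose and 17 fell (background 31.7% and 24.3%). In the unpaired main fit the Ahr+/+ share of lower calls, 49.4%, was above the background and the Ahr-/- share, 22.1%, near it. Lower calls were 49.4% of the 77 ribosomal protein genes in Ahr+/+ cells too (0 higher and 38 lower). Their median was -0.35, beside -0.29 for the members. Other coding genes with mRNAs under 700 nt had 15.6% higher and 34.2% lower calls. The Ahr+/+ share is therefore not particular to the chain. In Ahr-/- cells 0% of the ribosomal protein genes were called higher and 11.7% lower. In activated Ahr-/- cells the identifier series changed with time from 15 to 20, so series and time cannot be told apart there. Plain library sizes gave 16 members higher and 21 lower in Ahr+/+ and 30 and 0 in Ahr-/- cells, so the direction in Ahr-/- cells turns with the scale. Relative to the median of all genes, 14 (Ahr+/+) and 26 (Ahr-/-) of 77 members lay above it. A replicate block brought the Ahr-/- count to 41 (14 higher and 27 lower) and the fit on only these groups to 14, so the Ahr-/- reading rests on the fit used. Complex V had 13 lower calls of 17 members in Ahr+/+ cells, with a median of -0.71.

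Beside Cox6a2 (3.27 ± 0.27, log2, adjusted p = 4.25e-16, in Ahr+/+ and 2.191 ± 0.24, log2, adjusted p = 1.79e-11, in Ahr-/-), the members that rose were led by Atp5s, back from its 3 h low (1.56 ± 0.24, log2, adjusted p = 1.17e-07, and 1.37 ± 0.23, log2, adjusted p = 9.42e-07), and Uqcrq (1.05 ± 0.18, log2, adjusted p = 1.37e-06, and 0.76 ± 0.18, log2, adjusted p = 2.61e-04). Cox7a2l rose by 0.83 ± 0.11 (log2, adjusted p = 2.35e-09) and 0.64 ± 0.11 (log2, adjusted p = 1.08e-06), Ndufa6, an accessory subunit of complex I, by 0.64 ± 0.16 (log2, adjusted p = 3.52e-04) in Ahr+/+ and Ndufb9 by 0.69 ± 0.14 (log2, adjusted p = 2.06e-05) in Ahr-/- cells. The leading falls were in complexes V and IV. Atp5k went from 55.5, 59.3, 54.0 and 56.5 to 18.4, 16.9, 26.5 and 22.1 CPM in Ahr+/+ cells (log2 fold change -1.42 ± 0.19 SE, adjusted p = 2.54e-09), and in Ahr-/- cells changed by -0.56 ± 0.18 (log2, adjusted p = 0.00719). That second call was lost without any 1 of 5 of the 8 libraries (3 h replicates 1, 2 and 3 and 20 h replicates 3 and 4), and the Ahr-/- call of Atp5g2 given next without 20 h replicate 3. Atp5mpl fell with -1.27 ± 0.11 (log2, adjusted p = 1.11e-14) and -0.65 ± 0.11 (log2, adjusted p = 9.94e-07), and Cox7b, a small complex IV subunit, with -1.25 ± 0.13 (log2, adjusted p = 1.55e-12) and -0.50 ± 0.13 (log2, adjusted p = 5.01e-04). Ndufa4 (-1.08 ± 0.10, log2, adjusted p = 1.59e-14) and Cox6c (-1.04 ± 0.09, log2, adjusted p = 1.45e-14) completed the 5 leading falls in Ahr+/+, and Atp5g2 (-0.55 ± 0.15, log2, adjusted p = 0.00111) and Atp5l, the g subunit of ATP synthase (-0.48 ± 0.09, log2, adjusted p = 1.14e-05), in Ahr-/- cells. All 17 Ahr-/- falls were among the 38 of Ahr+/+.

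The response at 20 h was also tested against that at 3 h, each relative to its own unactivated control. In Ahr+/+ cells the response was higher at 20 h for 4 members and lower for 29 (background 26.5% and 21.3%), and in Ahr-/- cells for 3 and 17 (background 25.2% and 19.4%). On plain library sizes the splits were 14 and 14, and 20 and 1. The Ahr-/- count of 20 became 33 (8 higher and 25 lower) with a replicate block and 6 (2 and 4) in a fit on only the groups compared. In activated Ahr-/- cells the identifier series changes with time, and that limit holds for this count too. Of the 77 ribosomal protein genes, 0 were higher and 43 lower (55.8%) in Ahr+/+ cells, beside 37.7% lower of the members. In Ahr-/- cells 0 of them were higher and 8 lower (10.4%), beside 22.1% lower of the members. Of the 29 members lower in Ahr+/+ cells, 13 were in complex V. This difference of responses was 5.25 ± 0.40 (log2, adjusted p = 1.09e-16) for Cox6a2, -1.34 ± 0.16 (log2, adjusted p = 1.55e-10) for Atp5mpl and -1.31 ± 0.26 (log2, adjusted p = 2.27e-05) for Atp5k in Ahr+/+ cells, and 4.67 ± 0.38 (log2, adjusted p = 9.24e-16), -0.84 ± 0.16 (log2, adjusted p = 8.55e-06) and -0.95 ± 0.26 (log2, adjusted p = 0.00155) in Ahr-/- cells.

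Between the genotypes, 0 of 77 members differed in unactivated cells at 3 h (background 1.21%), in activated cells at 3 h (2.83%) and in unactivated cells at 20 h (0.702%) by edgeR, with 8, 19 and 2 members at an unadjusted p under 0.05. DESeq2 called 0, 1 (Sdhd at 3 h of hk S.E.) and 1 (Ndufc2 in unactivated cells at 20 h). Leaving out Ahr+/+ replicate 3 or Ahr-/- replicate 1 brought in Cox6a2 in unactivated cells at 3 h, with 1 call each, and leaving out Ahr-/- replicate 4 brought in Sdhd at 3 h of hk S.E. The 3 h medians of the members were -0.08 and -0.12, with 11 and 15 of 77 members above the median of all genes.

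At 20 h of hk S.E. 8 members were higher in Ahr-/- than in Ahr+/+ BMMs and 0 lower (edgeR; 22 at an unadjusted p under 0.05), against a background of 5.06% higher and 7.39% lower of all genes. They were 4 genes of complex V (Atp5k, Atp5g1, Atp5mpl, Atp5l), 2 of complex IV (Cox6c, Cox7b), and Ndufa4 and Ndufb2. Cox6c had 53.0, 51.8, 54.7 and 61.1 CPM in Ahr+/+ and 75.2, 98.8, 62.9 and 69.1 CPM in Ahr-/- libraries (log2 fold change 0.47 ± 0.09 SE, adjusted p = 1.28e-04). Ndufa4 had 30.5, 31.2, 29.2 and 35.8 and 47.6, 52.7, 36.9 and 37.9 CPM (log2 fold change 0.46 ± 0.10 SE, adjusted p = 2.59e-04). The groups did not overlap for Ndufa4, Cox6c, Cox7b and Ndufb2, and overlapped for the other 4 genes. The share of all genes tested that separate in this way is not given, so this describes single genes and not the members as a set. Atp5k, with the largest difference (0.64 ± 0.19, log2, adjusted p = 0.00936), held 18.4, 16.9, 26.5 and 22.1 and 42.3, 41.1, 23.8 and 24.1 CPM, and Atp5g1, a c-ring gene (0.52 ± 0.15, log2, adjusted p = 0.00975), 27.5, 25.7, 30.8 and 29.0 and 41.9, 58.9, 27.4 and 33.8 CPM. For both, Ahr-/- replicates 1 and 2 were high and replicates 3 and 4 near the Ahr+/+ range. The Atp5k call was lost without Ahr+/+ replicate 1, 2 or 4 or Ahr-/- replicate 1 or 2, and the Atp5g1 call without any Ahr+/+ replicate or Ahr-/- replicate 1 or 2.

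That split of the Ahr-/- libraries ran through the chain at 20 h. Summed over the 77 members, activated DMSO Ahr-/- replicates 1 to 4 had 7180, 7402, 5553 and 5778 CPM and Ahr+/+ replicates 5924, 5791, 6012 and 6725 CPM. Unactivated Ahr-/- replicates at 20 h split alike (7076, 6643, 5490 and 5628 CPM). So did activated ones with I3C (7545, 7300, 5869 and 5894 CPM) and BaP (7415, 6694, 5724 and 5824 CPM). In the activated DMSO libraries the ribosomal protein genes went along, with 28256, 26740, 18445 and 18476 CPM in Ahr-/- and 17544 to 22388 CPM in Ahr+/+ libraries, and 7 of 77 were called higher in Ahr-/- cells. Macrophage markers summed to 27415 and 30819 CPM in Ahr-/- replicates 1 and 2 and to 19688 and 20114 CPM in replicates 3 and 4, and mtDNA-encoded subunits lay the other way, at 5822 and 6153 against 9520 and 11236 CPM. Of the 8 member calls, 7 have mRNAs under 700 nt, and Spearman's rho between length and log2 fold change was -0.363 over the 77 members. The count of 8 fell to 2 without Ahr-/- replicate 2, to 3 without Ahr-/- replicate 1 or Ahr+/+ replicate 2 and to 4 without Ahr+/+ replicate 1 or 3, and it was 11 at the highest. It was 0 in a fit on only these groups and 0 with the identifier series as a covariate, and 12 with plain library sizes. Series and genotype cannot be told apart between these libraries, so the covariate fit could take a series effect only from other groups. Its 0 therefore decides nothing about the 8 calls. Of the marker lists, both tested dendritic cell genes (Zbtb46, Flt3; 2 of 4 listed) were lower in Ahr-/- cells (sums 0.859 to 1.85 CPM in Ahr+/+ and 0.0750 to 0.442 in Ahr-/-), and 1 of 4 tested fibroblast genes, Pdgfrb, was higher (sums 3.77 to 5.77 and 7.58 to 9.84 CPM). Macrophage markers summed to 18210 to 22024 CPM in Ahr+/+ cells, and 2 of 8 were lower in Ahr-/- cells. The part of these in the genotype result was not tested.

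Whether the response to hk S.E. itself differed between genotypes was tested as an interaction. At 3 h 0 members passed (edgeR, 0 at an unadjusted p under 0.05, background 0.0138%). At 20 h 1 member, Ndufa4, had a response that was higher in Ahr-/- cells by 0.53 ± 0.14 (log2, adjusted p = 0.00647), and 0 were lower (13 at an unadjusted p under 0.05, background 2.08% and 2.33%). The call was lost without any 1 of 11 of the 16 libraries, with estimates of 0.43 to 0.62, and held without unactivated Ahr+/+ replicate 3, activated Ahr+/+ replicate 4, unactivated Ahr-/- replicate 1 or activated Ahr-/- replicates 3 or 4. With a replicate block 5 members passed, Ndufa4, Atp5g1, Cox6c, Ndufb2 and Atp5mpl, and 0 with the identifier series as a covariate. Series and genotype cannot be told apart between the activated libraries at 20 h, so that 0 decides nothing. In the unpaired main fit Ndufa4 was called lower at 20 h in both genotypes. For the members called lower there in Ahr+/+ cells alone, a difference in response between the genotypes did not pass in that fit. Cox6c is among the latter, and for it the difference passed with the replicate block.

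Neither AhR ligand changed a member past the threshold. BaP is a polycyclic aromatic hydrocarbon and I3C an indole from cruciferous plants, and they were given at different doses, so their values are set side by side. Over the 8 comparisons with DMSO in activated cells, 0 of 616 values passed (edgeR, 8 at an unadjusted p under 0.05, which is 1.30%). In Ahr+/+ cells the background of all genes with BaP was 0.0482% at the early and 0.234% at the late time, and with I3C 0.131% and 0.509%. The same shares in Ahr-/- cells were 0.0275%, 0.0138%, 0.0206% and 0.206%. The median absolute log2 fold change of the 616 was 0.08, beside a median SE of 0.13, and the largest was 0.48. The 95% intervals together ran from -0.94 to 1.08, so changes within those bounds are not excluded for single genes. These intervals and p-values are from the unpaired main fit. Libraries of the same replicate number were correlated in each of the 8 comparisons (0.28 to 0.96), and the main fit did not use that pairing. The smallest adjusted p was 0.224, for Atp5b with BaP in Ahr+/+ cells at 20 h, which measured 811, 807, 832 and 963 CPM with DMSO and 764, 711, 769 and 764 CPM with BaP (-0.18 ± 0.07, log2). Ligand effects did not pass as different between genotypes (0 of 308 values, 1 at an unadjusted p under 0.05, backgrounds 0.0138% and 0% for BaP and 0% and 0% for I3C at 3 h and 20 h). Their 95% intervals ran from -1.05 to 1.07.

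Small shifts without a call were one-sided in some of these comparisons. With BaP in Ahr+/+ cells at 20 h, 8 of 77 members lay above the median of all genes (member median -0.14, summed level 0.923 of DMSO), and with I3C 10 of 77 (member median -0.07). Other coding genes with mRNAs under 700 nt had medians of -0.140 (BaP) and -0.0859 (I3C) beside -0.153 and -0.0951 for the members of that length. At 3 h in Ahr-/- cells 68 members lay above the median of all genes with I3C (member median 0.11) and 54 with BaP. Other coding genes with mRNAs under 700 nt had medians of 0.0880 (I3C) and 0.105 (BaP) there, and the ribosomal protein genes 0.155 with each ligand. In Ahr+/+ cells at 20 h the ribosomal protein genes had -0.245 (BaP) and -0.107 (I3C). The one-sided shifts are therefore not particular to the chain. The comparisons at one time and genotype share their DMSO libraries. Ndufa4 in activated Ahr+/+ cells at 20 h had 33.3, 27.9, 31.9 and 31.6 CPM with BaP and 32.2, 32.1, 34.7 and 30.5 CPM with I3C, ranges that overlap that of DMSO. Cox6a2 had 15.8, 13.9, 14.8 and 14.9 CPM with BaP and 14.6, 16.8, 15.6 and 16.8 CPM with I3C, all below the 17.3, 18.2, 17.2 and 21.4 CPM with DMSO, and neither difference passed (-0.32 ± 0.22, log2, adjusted p = 0.665, and -0.21 ± 0.22, log2, adjusted p = 1.00). The values of BaP and I3C are given at unequal doses, so the 154 differences between them in Ahr+/+ cells, of which 0 passed and 1 (Atp5b) had an unadjusted p under 0.05 (backgrounds 0.11% at 3 h and 0.282% at 20 h), describe these exposures and not the compounds.

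The subunits encoded by mtDNA pair with the nuclear members in the same complexes. Of 12 tested, 2 were higher and 0 lower at 3 h and 0 and 3 at 20 h in Ahr+/+ cells, and 1 and 0, then 0 and 1, in Ahr-/- cells. Among them mt-Atp6, mt-Atp8, mt-Co2, mt-Co3, mt-Nd4l and mt-Nd6 averaged only 0.236 to 9.14 CPM, while the rest averaged 412 to 5799 CPM. Counts and medians of this list include those low genes. The 3 lower calls at 20 h in Ahr+/+ cells (25% of the list) were near the background of 28.7%, and the 2 higher calls at 3 h (16.7%) were below that of 24.2%. In Ahr-/- cells the 1 higher call at 3 h and the 1 lower call at 20 h (8.33% each) were below 25.5% and 26%. Medians were 0.40, -0.70, 0.41 and -0.48 in the same order. mt-Cytb, the complex III subunit, changed by 0.57 ± 0.17 (log2, adjusted p = 0.00310) at 3 h and -0.97 ± 0.17 (log2, adjusted p = 1.63e-06) at 20 h in Ahr+/+ and by -0.62 ± 0.17 (log2, adjusted p = 0.00124) at 20 h in Ahr-/- cells. mt-Nd4, a proton-pumping subunit of complex I, changed by 0.54 ± 0.18 (log2, adjusted p = 0.00652) and -0.78 ± 0.18 (log2, adjusted p = 1.03e-04) in Ahr+/+ and 0.51 ± 0.18 (log2, adjusted p = 0.00980) at 3 h in Ahr-/- cells, and mt-Nd1 by -1.34 ± 0.32 (log2, adjusted p = 2.03e-04) in Ahr+/+ cells at 20 h. The 3 h values of mt-Cytb and mt-Nd4 turned to between -0.17 and -0.11 on plain library sizes, where the higher and lower calls of the list came to 0 and 0 at 3 h and 0 and 8 at 20 h in Ahr+/+ cells, and 0 and 0, then 0 and 4, in Ahr-/- cells. The 3 h calls were lost without unactivated replicate 3 (mt-Cytb) or without any 1 of 5 (mt-Nd4, Ahr+/+ unactivated replicates 3 and 4 and activated replicates 2, 3 and 4) or 6 libraries (mt-Nd4, all Ahr-/- ones but unactivated replicate 1 and activated replicate 2). The libraries were poly(A)-selected, and mtDNA transcripts varied widely within groups (5852 to 12898 CPM summed in unactivated Ahr-/- cells at 3 h).

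Assembly factors, which build the complexes and are not part of them, had more lower than higher calls at 3 h on either scale, and at 20 h more higher than lower calls on the TMM scale, an order that turned in Ahr+/+ cells on plain library sizes (11 higher and 16 lower) and came to 9 and 8 in Ahr-/- cells. Of 46 tested, 9 were higher and 18 lower at 3 h and 17 and 6 at 20 h in Ahr+/+ cells, and 7 and 18, then 20 and 4, in Ahr-/- cells. In Ahr+/+ cells that is 19.6% higher and 39.1% lower at 3 h, beside 24.2% and 32.3% of all genes, and 37.0% and 13.0% at 20 h, beside 29.9% and 28.7%. In Ahr-/- cells it is 15.2% and 39.1%, beside 25.5% and 31.8%, and then 43.5% and 8.70%, beside 28.3% and 26%. With plain library sizes the 3 h counts were 3 and 36 and 3 and 37. Sco1, a copper chaperone of complex IV, rose by 1.66 ± 0.15 (log2, adjusted p = 3.51e-14) at 3 h and 1.27 ± 0.15 (log2, adjusted p = 8.94e-11) at 20 h in Ahr+/+ cells. Coa5 and Cox18, both needed for complex IV, rose by 1.57 ± 0.18 (log2, adjusted p = 2.34e-11) and 1.54 ± 0.12 (log2, adjusted p = 3.11e-17) at 3 h and by 1.26 ± 0.17 (log2, adjusted p = 8.45e-09) and 1.70 ± 0.11 (log2, adjusted p = 1.40e-19) at 20 h. Ahr-/- cells gave 1.29 ± 0.15 (log2), 1.44 ± 0.18 (log2) and 1.501 ± 0.12 (log2) for the 3 genes at 3 h. Tmem126b, which assembles the membrane arm of complex I, fell with -1.63 ± 0.13 (log2, adjusted p = 2.47e-16) and -1.78 ± 0.13 (log2, adjusted p = 8.54e-18) at 3 h. Sdhaf1, which helps place the iron-sulfur clusters of Sdhb, fell with -1.60 ± 0.19 (log2, adjusted p = 2.01e-10) at 3 h in Ahr+/+ cells, as did Lyrm7, a chaperone of the Rieske protein (-1.505 ± 0.44, log2, adjusted p = 0.00257), whose call was lost without unactivated replicate 3 or activated replicate 1 or 2. In Ahr-/- cells Uqcc3 and Bcs1l, both for complex III, fell with -1.57 ± 0.20 (log2, adjusted p = 4.05e-10) and -1.56 ± 0.18 (log2, adjusted p = 2.53e-11). At 20 h Sdhaf4 fell with -1.33 ± 0.14 (log2, adjusted p = 2.39e-12) and -0.98 ± 0.14 (log2, adjusted p = 1.11e-08) and Nubpl, which inserts iron-sulfur clusters into complex I, with -1.07 ± 0.16 (log2, adjusted p = 5.72e-08) and -0.96 ± 0.16 (log2, adjusted p = 7.33e-07). Ttc19 (1.41 ± 0.18, log2, adjusted p = 1.45e-09) and the copper carrier gene Cox17 (1.27 ± 0.12, log2, adjusted p = 5.78e-14) were among the higher calls in Ahr-/- cells. At 20 h of hk S.E. 3 assembly factors were higher (6.52%) and 1 lower (2.17%) in Ahr-/- than in Ahr+/+ cells, beside 5.06% and 7.39% of all genes.

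Among 14 TCA cycle enzymes, which feed NADH and succinate to the chain, 5 were higher and 0 lower at 3 h and 3 and 6 at 20 h in Ahr+/+ cells, and 5 and 1, then 6 and 5, in Ahr-/- cells. The Ahr+/+ shares were 35.7% higher and 0% lower at 3 h (24.2% and 32.3% of all genes) and 21.4% and 42.9% at 20 h (29.9% and 28.7%). The Ahr-/- shares were 35.7% and 7.14% (25.5% and 31.8% of all genes), then 42.9% and 35.7% (28.3% and 26%). Plain library sizes gave 0 and 11 at 3 h and 2 and 10 at 20 h in Ahr+/+ cells, and 0 and 11, then 3 and 5, in Ahr-/- cells. Dld and Dlst, of the 2-oxoglutarate dehydrogenase complex, rose by 0.81 ± 0.16 (log2, adjusted p = 1.16e-05) and 0.58 ± 0.06 (log2, adjusted p = 1.57e-13) at 3 h in Ahr+/+ cells on the TMM scale, and citrate synthase Cs by 0.47 ± 0.05 (log2, adjusted p = 2.23e-11), with Dlst and Cs turning to -0.09 and -0.20 on plain library sizes. At 20 h Dld and Mdh2, malate dehydrogenase, were higher by 0.74 ± 0.16 (log2, adjusted p = 4.55e-05) and 0.69 ± 0.09 (log2, adjusted p = 1.09e-09). Suclg2, of succinyl-CoA ligase, fell with -1.69 ± 0.12 (log2, adjusted p = 7.59e-19) and Idh2, the mitochondrial NADP-dependent isocitrate dehydrogenase, with -1.32 ± 0.14 (log2, adjusted p = 4.88e-12) in Ahr+/+ cells, with -1.18 ± 0.11 (log2, adjusted p = 2.34e-13) and -0.79 ± 0.14 (log2, adjusted p = 2.22e-06) in Ahr-/- cells. Idh3a, the catalytic subunit of the NAD-dependent isocitrate dehydrogenase, fell with -0.88 ± 0.09 (log2, adjusted p = 3.74e-12) in Ahr+/+ cells and gave 0.05 ± 0.09 (log2, adjusted p = 0.635) in Ahr-/- cells, and at 20 h of hk S.E. it was higher in Ahr-/- cells by 0.79 ± 0.09 (log2, adjusted p = 5.86e-09).

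Of chain proteins that the name rule leaves out, 6 were tested, with 3 and 0 higher and lower at 3 h and 4 and 1 at 20 h in Ahr+/+ cells, and 4 and 0, then 5 and 1, in Ahr-/- cells. The Ahr+/+ shares were 50% and 0% (24.2% and 32.3% of all genes), then 66.7% and 16.7% (29.9% and 28.7%). The Ahr-/- shares were 66.7% and 0% (25.5% and 31.8% of all genes), then 83.3% and 16.7% (28.3% and 26%). On plain library sizes their counts came to 2 and 2 at 3 h and 3 and 1 at 20 h in Ahr+/+ cells, and 2 and 2, then 3 and 1, in Ahr-/- cells. Cycs, cytochrome c, rose by 1.70 ± 0.16 (log2, adjusted p = 1.18e-13) at 3 h and 1.38 ± 0.16 (log2, adjusted p = 5.75e-11) at 20 h in Ahr+/+ and by 1.53 ± 0.16 (log2) and 1.29 ± 0.16 (log2) in Ahr-/- cells, and Cyc1, the cytochrome of complex III, by 0.71 ± 0.09 (log2, adjusted p = 1.78e-09) at 20 h in Ahr+/+ cells. Atpif1, the inhibitor of ATP synthase, fell at 20 h with -1.18 ± 0.22 (log2, adjusted p = 7.79e-06) and -1.10 ± 0.22 (log2, adjusted p = 2.42e-05). Ndufab1, the acyl carrier protein of complex I, gave 0.29 ± 0.10 (log2, adjusted p = 0.0108) in Ahr+/+ cells at 20 h, and Ndufa4l2 averaged 0.0128 CPM and was not tested. Of 15 regulators, 5 were higher and 7 lower at 3 h and 6 and 3 at 20 h in Ahr+/+ cells, and 7 and 5, then 5 and 1, in Ahr-/- cells. As shares these are 33.3% and 46.7%, then 40% and 20%, in Ahr+/+ and 46.7% and 33.3%, then 33.3% and 6.67%, in Ahr-/- cells, beside all-gene shares of 24.2% and 32.3%, 29.9% and 28.7%, 25.5% and 31.8%, and 28.3% and 26%. Plain library sizes gave 3 and 9 at 3 h and 4 and 6 at 20 h in Ahr+/+ cells, and 3 and 8, then 4 and 4, in Ahr-/- cells. Nrf1 on the TMM scale was higher by 0.55 ± 0.07 (log2, adjusted p = 3.16e-09) at 3 h, which turned to -0.13 on plain library sizes, and 0.49 ± 0.07 (log2, adjusted p = 2.74e-08) at 20 h in Ahr+/+ cells, and Gabpa, the DNA-binding subunit of GABP, by 0.69 ± 0.12 (log2, adjusted p = 1.80e-06) at 3 h. Esrra, which encodes ERRα, gave 0.37 ± 0.13 (log2, adjusted p = 0.0140) and 1.26 ± 0.13 (log2, adjusted p = 2.64e-12), and Tfam, which drives mtDNA transcription, 0.19 ± 0.12 (log2, adjusted p = 0.181) and 0.46 ± 0.12 (log2, adjusted p = 5.66e-04). The coactivator Ppargc1b rose by 1.81 ± 0.22 (log2, adjusted p = 2.65e-10) at 3 h and gave 0.30 ± 0.22 (log2, adjusted p = 0.219) at 20 h, Pprc1 gave 0.04 ± 0.11 (log2, adjusted p = 0.768) and 0.71 ± 0.11 (log2, adjusted p = 5.23e-08), and Ppargc1a averaged 0.00537 CPM and was not tested. Hif1a, the hypoxia factor, rose by 1.40 ± 0.16 (log2, adjusted p = 2.08e-11) and 1.52 ± 0.16 (log2, adjusted p = 1.35e-12), and Myc fell with -1.12 ± 0.27 (log2, adjusted p = 2.45e-04) and -2.89 ± 0.29 (log2, adjusted p = 5.30e-13) in Ahr+/+ cells.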

How the data were processed

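RNA-seq libraries of 64 BMM samples in 16 groups of 4 were analysed from 1 table of raw counts per gene and library, grouped by the submitters' labels. Per the labels and the study's methods, the authors made the deposited counts from stranded poly(A) libraries by bcl2fastq 2.19.0.316, HISAT2 2.1.0 on mm10 and HTSeq 0.9.1 on a GENCODE annotation, counting strand-specifically and leaving out reads that map to more than 1 place, which lowers genes with near-identical copies. A further table of transformed values was not used, and 5 rows per table that name no gene stayed out of library sizes. Between 74.9% and 80.8% of reads lay on genes (median 24499200 gene counts per library).

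Counts were tested with edgeR 4.0.16 (R 4.3.3; filterByExpr with a minimum count of 10, TMM, glmQLFit and glmQLFTest on 16 group means over all 64 libraries, 48 residual degrees of freedom), with Benjamini-Hochberg adjustment over 14537 genes and a threshold of 0.01. Fold changes are log2 with SE computed from F. Alternatives were DESeq2 1.42.0, DESeq2 size factors, no filter, fits on the groups compared, a replicate block, identifier series as a covariate, each library left out and, added after seeing the data, plain library sizes. The fit was tested on simulated data. Lengths and positions are from GENCODE annotation of GRCm38, and promoters from RefSeq. Nothing in the labels says that replicates of a group are separate animals, so p-values measure the spread between these samples. Whether replicate numbers pair libraries was checked by correlating deviations from the group means over 5000 highly expressed genes: 68 of 72 pairs were over 0.1 (range -0.60 to 0.96), and in 14 of 18 comparisons every pair was, and there the numbers were taken as paired. The exceptions were activation at 3 h in Ahr-/- cells, at 20 h in Ahr+/+ cells, and time in unactivated cells of both genotypes. The main fit did not use this pairing, so its counts and p-values are unpaired. The replicate block is the paired alternative, and its counts are given where they moved by more than 1.5 times.

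Members and gene lists were chosen with earlier results of these data known. Named genes were, per activation and time comparison, up to 5 called members a direction with the largest change and groups that do not overlap, up to 3 in the other comparisons, and fixed genes whatever their values (Ndufa4, complex II, isoforms, the highest and lowest of each complex, the regulators and chain proteins outside the name rule, and Ahr and Ahrr). From the lists of mtDNA-encoded subunits, assembly factors and TCA cycle enzymes, up to 3 called genes a direction were named. Other names follow a count or were chosen after their values were seen. Non-overlap of the members named for the largest changes with activation and time was fixed by this choice and adds no support.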

Additional observations from a re-analysis of the deposited data

Results flagged for a closer look

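Within groups of 4, 128 sets of values were examined for a library far from the other 3, and 4 stood out, fewer than the 6.4 that chance gives at 1 in 20. Cox6a2 measured 23.2 CPM in Ahr-/- BaP hk S.E. 20 h replicate 1, against 14.9 to 15.8 CPM in the other libraries. Ndufa4 measured 63.1 CPM in Ahr-/- unactivated 20 h replicate 1, against 48.7 to 50.8 CPM. Uqcrq measured 41.7 CPM in Ahr+/+ hk S.E. 3 h replicate 2, against 48.01 to 48.7 CPM, and Atp5g2 73.4 CPM in Ahr+/+ BaP hk S.E. 3 h replicate 2, against 65.2 to 66.5 CPM.

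The response of Ndufa4 to hk S.E. at 20 h differed between the genotypes, by 0.53 on the log2 scale (adjusted p = 0.00647, edgeR), and the range without each library in turn is 0.43 to 0.62. The call was lost without any 1 of 11 of the 16 libraries, with the identifier series as a covariate, with no filter and in the fit on only the groups compared. Series and genotype cannot be told apart between the activated libraries at 20 h. The response at 20 h differed from that at 3 h in Ahr+/+ cells for Cox6a2 (difference of log2 fold changes 5.25), Atp5s (1.504), Uqcrq (1.15), Atp5mpl (-1.34), Atp5k (-1.31) and Uqcr11 (-1.20). In Ahr-/- cells it differed for Cox6a2 (4.67), Atp5s (1.15), Uqcrq (1.01), Uqcrh (-1.07), Atp5k (-0.95) and Uqcr11 (-0.95), and the last of these was lost without any 1 of 9 of the 16 libraries.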

How the results depend on the processing

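Counts of members called are given here where they moved by more than 1.5 times. Plain library sizes gave 51 instead of 23 (Ahr+/+ at 3 h), 53 instead of 16 (Ahr-/- at 3 h), 54 instead of 33 (Ahr+/+ at 20 h) and 43 instead of 22 (Ahr-/- at 20 h), and turned the log2 ratio of the summed members to -0.41 (Ahr+/+ at 3 h), -0.43 (Ahr-/- at 3 h) and -0.25 (Ahr-/- at 20 h), with -0.41 for Ahr+/+ at 20 h. The replicate block gave 25 (Ahr-/- at 3 h), 36 (Ahr-/- at 20 h), 41 instead of 26 (time in activated Ahr-/- cells), 4 instead of 1 (time in unactivated Ahr-/- cells; Cox6a2, Cox7a2l, Cox7c, Uqcrh), 33 instead of 20 (response by time in Ahr-/- cells) and 5 instead of 1 (response by genotype at 20 h), and changed no other count or call by as much. DESeq2 gave 25 (Ahr-/- at 3 h) and 1 instead of 0 for the genotypes in activated cells at 3 h and in unactivated cells at 20 h. Fits on only the groups compared gave 10 (Ahr-/- at 20 h), 14 (time in activated Ahr-/- cells), 6 (response by time in Ahr-/- cells), 0 instead of 8 (genotypes at 20 h of hk S.E.) and 0 (response by genotype at 20 h). For the genotypes at 20 h of hk S.E., DESeq2 size factors gave 5, no filter 5 and the identifier series 0. Series and genotype cannot be told apart between those activated libraries, so the series fit decides nothing there. For the response by genotype at 20 h, no filter and the identifier series gave 0, and for time in unactivated Ahr+/+ cells both gave 1 instead of 2. The cause was not tested.

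Leaving out 1 library at a time gave 16 to 26 and 13 to 16 calls at 3 h (Ahr+/+ and Ahr-/-), 29 to 35 and 20 to 26 at 20 h, 0 to 1 for the genotypes at 3 h in unactivated and in activated cells, 0 in unactivated cells at 20 h, 2 to 11 in activated cells at 20 h, 1 to 2 and 1 for time in unactivated cells, 44 to 48 and 23 to 31 for time in activated cells, 0 and 0 to 4 for the response by genotype at 3 h and 20 h, 29 to 33 and 16 to 23 for the response by time, and 0 for the ligands.

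For named genes, 122 values were recomputed 1809 times without plain library sizes. Of these 1697 stayed on their side of the threshold, 112 no longer passed and 0 turned direction. Plain library sizes turned 16 of them. In Ahr+/+ cells at 3 h these were Cox5a (-0.0204), Ndufs4 (-0.0285), Uqcrb (-0.10), Uqcrfs1 (-0.14), Cox6c (-0.15), mt-Cytb (-0.11), mt-Nd4 (-0.14), Dlst (-0.0914) and Cs (-0.20). In Ahr-/- cells at 3 h they were Cox5a (-0.0436), Atp5b (-0.12), Uqcrfs1 (-0.16), Cox6c (-0.18), Cox7a2 (-0.19), mt-Nd4 (-0.17) and Cs (-0.13). Sdhd, Nrf1 and the Ahr+/+ call of Cox5a at 20 h, given with their values beside their results, turned too. Depth limits Atp5s and the genes under 1 CPM most.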
